A study of Drosophila melanogaster with 3 samples.

Results

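Small nucleolar RNA (snoRNA) genes were examined for peaks of the CG16863 protein in Drosophila melanogaster embryos. The members were the genes that Ensembl BDGP6 gives the biotype snoRNA, 269 of the 18164 genes annotated on the 6 chromosome arms used, together with the 95 host genes that span a snoRNA gene on the same strand. The data are ChIP-seq peak lists from whole embryos of 0 to 16 h, mixed in sex, of a transgenic line that carries CG16863 fused at its C terminus to eGFP, with the tagged protein precipitated by an antibody to GFP. There were 3 biological replicates of this 1 group and no contrast, so the values below describe where peaks lay and how the replicates varied. Each sample is whole embryos, so the cells in which a site was occupied are not known.

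Most snoRNAs guide the chemical modification of ribosomal RNA. Box C/D snoRNAs direct ribose methylation by fibrillarin and carry a C box near the 5′ end and a D box near the 3′ end, and box H/ACA snoRNAs direct the conversion of uridine to pseudouridine and end shortly after an ACA. Most fly snoRNAs lie in introns and are released from the spliced intron of a host gene, which is often a ribosomal protein gene or a non-coding gene of the Uhg family, so that the start site of the host also makes the snoRNA. A few, such as U3, are made from promoters of their own.

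By their names, 106 of the 269 genes were box C/D, 114 box H/ACA and 16 scaRNAs, which act in Cajal bodies, and 33 could not be classed. The sequences matched the names in most cases. A C box (TGATGA in the first 15 bases) and a D box (CTGA in the last 15) were both found in 74 of the 106 C/D genes, and an ACA in the last 8 bases in 108 of the 114 H/ACA genes. The annotated genes had a median length of 79.5 bases for C/D and 140.0 bases for H/ACA. The 7 snoRNA genes printed here are those with a reproducible peak at the start and a host whose promoter is printed further on. They were read on the strand of the gene from the RefSeq genome assembly, which has the coordinates of dm6. Capitals mark the C and D boxes of the C/D genes and the ACA of the H/ACA genes.
snoRNA:U49:66Da, C/D, chr3L:8601473-8601552, plus strand: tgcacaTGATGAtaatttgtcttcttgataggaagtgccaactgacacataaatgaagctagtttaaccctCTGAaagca
snoRNA:Or-CD11a, C/D, chr3L:3222475-3222541, minus strand: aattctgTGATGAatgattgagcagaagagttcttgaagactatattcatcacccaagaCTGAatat
snoRNA:Me18S-C1096, C/D, chr3R:11222405-11222489, plus strand: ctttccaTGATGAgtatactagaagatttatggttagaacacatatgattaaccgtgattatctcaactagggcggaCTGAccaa
snoRNA:Me28S-A774b, C/D, chr3L:13023580-13023652, plus strand: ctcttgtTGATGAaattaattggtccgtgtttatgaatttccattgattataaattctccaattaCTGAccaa
snoRNA:Psi18S-1275, H/ACA, chr3R:9778398-9778537, plus strand: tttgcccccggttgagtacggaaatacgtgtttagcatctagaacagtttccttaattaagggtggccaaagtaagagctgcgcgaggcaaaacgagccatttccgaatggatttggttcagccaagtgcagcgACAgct
snoRNA:Psi18S-920, H/ACA, chr3L:11822984-11823124, plus strand: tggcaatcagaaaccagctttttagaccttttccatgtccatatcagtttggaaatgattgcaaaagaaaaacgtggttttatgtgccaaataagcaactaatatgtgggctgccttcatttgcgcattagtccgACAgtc
snoRNA:Psi28S-1232, H/ACA, chrX:6743675-6743815, minus strand: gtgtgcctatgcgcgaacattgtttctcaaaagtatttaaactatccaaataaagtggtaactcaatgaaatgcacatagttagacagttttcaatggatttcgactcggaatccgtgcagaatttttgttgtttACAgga

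Of the 269 snoRNA genes, 247 had a host on the same strand, and these genes shared 95 hosts. The annotation placed 229 of them in introns in every host transcript, 14 in an intron or an exon depending on the transcript and 4 in exons. The median distance from the snoRNA start to the nearest start site of its host was 1433 bp, with a range of 0 to 50634 bp, and 35 genes started within 500 bp of it. The remaining 22 genes had no host on their strand. Counted by host or by runs of starts within 500 bp on a strand, the 269 genes formed 108 units.

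Reproducible peaks were rare at the snoRNA genes themselves. The optimal IDR set, the authors' list of 3953 peaks kept after irreproducible discovery rate analysis of the replicates, had a summit within 500 bp of the start of 12 of the 269 snoRNA genes (4.46%, 95% Wilson interval 2.57 to 7.63%), against 12.8% of all annotated genes. This interval, like all those below, covers counting error only, and genes are not replicates. A gene with such a summit is called bound here, which says only that a peak was listed. As another point of reference, 2.81% of all bases of the 6 arms lay within 500 bp of an IDR summit. The share depended on the unit counted and on the window: with each host or cluster counted once it was 11 of 108 (10.2%, 5.78 to 17.3%), and within 1000 bp it was 37 of 269 (13.8%, 10.2 to 18.4%), against 15.9% of all genes. A host or cluster counted as bound if any of its snoRNA genes was.

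The relaxed lists, which keep weak peaks, gave the same order when each gene was counted. In the list of the pooled replicates 77 snoRNA genes had a summit at the start (28.6%, 23.5 to 34.3%), against 39.2% of all genes. The relaxed list of replicate 1 had one at 70 (26.0%) of the snoRNA genes, against 35.7% of all genes, that of replicate 2 at 80 (29.7%), against 44.5%, and that of replicate 3 at 84 (31.2%), against 41.8%. The share of snoRNA genes was below that of all genes in each of the 3 replicates. Counted once per host or cluster, 54 of 108 units (50%) had a pooled relaxed summit at the start of any of their genes. A unit with several genes has several windows, so this share is not a like measure beside that of single genes. The calls at a given snoRNA often differed between replicates: 41 snoRNA genes (15.2%) had a relaxed summit in 3 replicates, 24 in 2, 63 in 1 and 141 (52.4%) in none, against 25.1% of all genes with a summit in 3 replicates and 42.1% with none.

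Of the 12 bound snoRNA genes, 9 (75%, 46.8 to 91.1%) had the summit within 500 bp of a start site of their host. Their hosts were the ribosomal protein genes RpL14, RpL28, RpS29, RpL17, RpL3, RpS12 and RpL10Ab and the non-coding host Uhg4. The 9 genes shared 8 summits, since snoRNA:Psi28S-2949 and snoRNA:Or-aca5 lie in succession in Uhg4. All 12 bound genes had the summit upstream of the snoRNA start. In the relaxed lists, where weak peaks are kept, a smaller part lay at host start sites: 27 of 77 genes in the pooled list, and 26 of 70, 32 of 80 and 24 of 84 in replicates 1, 2 and 3. The best pooled summit was upstream of the snoRNA start in 53 of the 77.

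**Figure D1:**
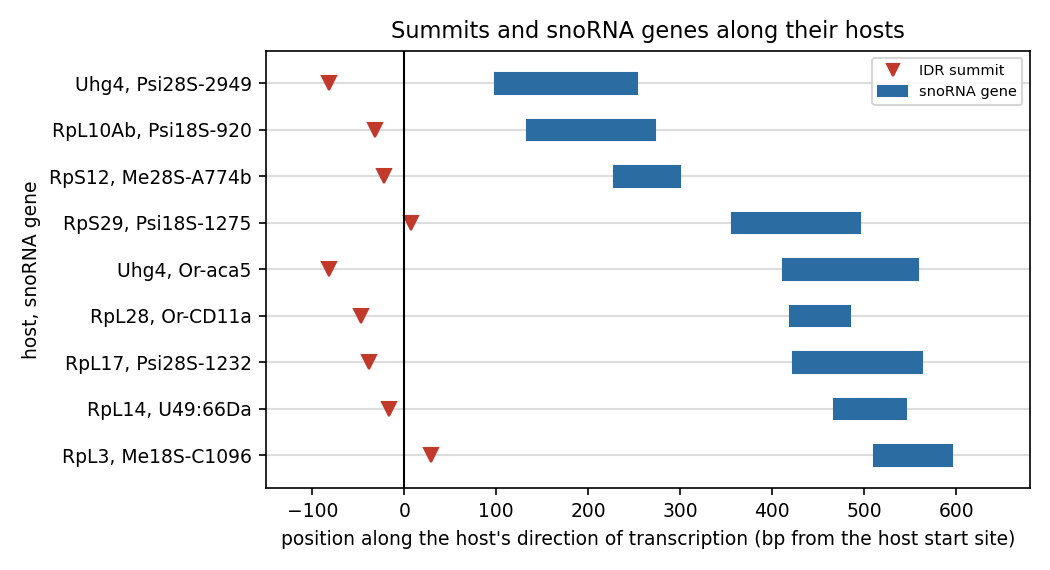
Positions of the IDR summit (triangle) and of the snoRNA gene (bar) in bp from the host start site, along the direction in which the host is transcribed, for the 9 bound snoRNA genes with the summit at a host start site. The summits sit between 82 bp upstream and 29 bp downstream of the host start, and the snoRNA genes begin 99 to 511 bp downstream of it.

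Peak heights are the authors' signal value of each replicate divided by the median of that replicate over the IDR peaks, so that 1.00 is a peak of median height. The peak with the highest mean at a snoRNA start was at snoRNA:U49:66Da (FBgn0060292), a C/D gene in RpL14, a protein of the large ribosomal subunit. The peak covered chr3L:8600871-8601052, with its summit 484 bp upstream of the snoRNA and 17 bp upstream of the RpL14 start. Its relative signal was 2.03, 2.74 and 3.32 in replicates 1, 2 and 3 (2.70 ± 0.642, SD, n = 3), above the median peak in every replicate. The peak at the Uhg4 pair, described further on, was higher than it in replicate 1, so the order of these peaks is not settled. The start of Nelf-E, which encodes a subunit of the negative elongation factor, was also within 500 bp of this summit.

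snoRNA:Or-CD11a (FBgn0086072), a C/D gene in RpL28, had its peak at chr3L:3222940-3223088, with the summit 47 bp upstream of the RpL28 start. The relative signals were 1.94, 1.72 and 1.72 (1.79 ± 0.128), and the start of the translation initiation factor gene eIF1 was within 500 bp as well. snoRNA:Psi18S-1275 (FBgn0086663), an H/ACA gene in RpS29, had 1.39, 1.49 and 1.83 (1.57 ± 0.230), with the summit 7 bp downstream of the RpS29 start. snoRNA:Psi28S-1232 (FBgn0082997), an H/ACA gene in RpL17, had 1.47, 1.21 and 1.53 (1.40 ± 0.171), and the start of a phenylalanine tRNA gene was also within 500 bp of its summit. The 4 peaks at RpL14, RpL28, RpS29 and RpL17 were above the median IDR peak in each replicate.

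Of the peaks at snoRNA starts, the others at ribosomal protein hosts had mean heights below that of the median IDR peak. snoRNA:Me18S-C1096 (FBgn0086055), in RpL3, had relative signals of 0.490, 0.926 and 1.25 in replicates 1, 2 and 3, the widest spread relative to the mean among the bound snoRNA genes (0.890 ± 0.383). snoRNA:Me28S-A774b (FBgn0086078), in RpS12, had 0.671, 0.845 and 0.978 (0.831 ± 0.154). snoRNA:Psi18S-920 (FBgn0083015), in RpL10Ab, had 0.617, 0.911 and 0.632 (0.720 ± 0.165). The peak at RpL3 was below the median in replicates 1 and 2 and above it in replicate 3, whereas those at RpS12 and RpL10Ab were below it in all 3.

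**Figure D2:**
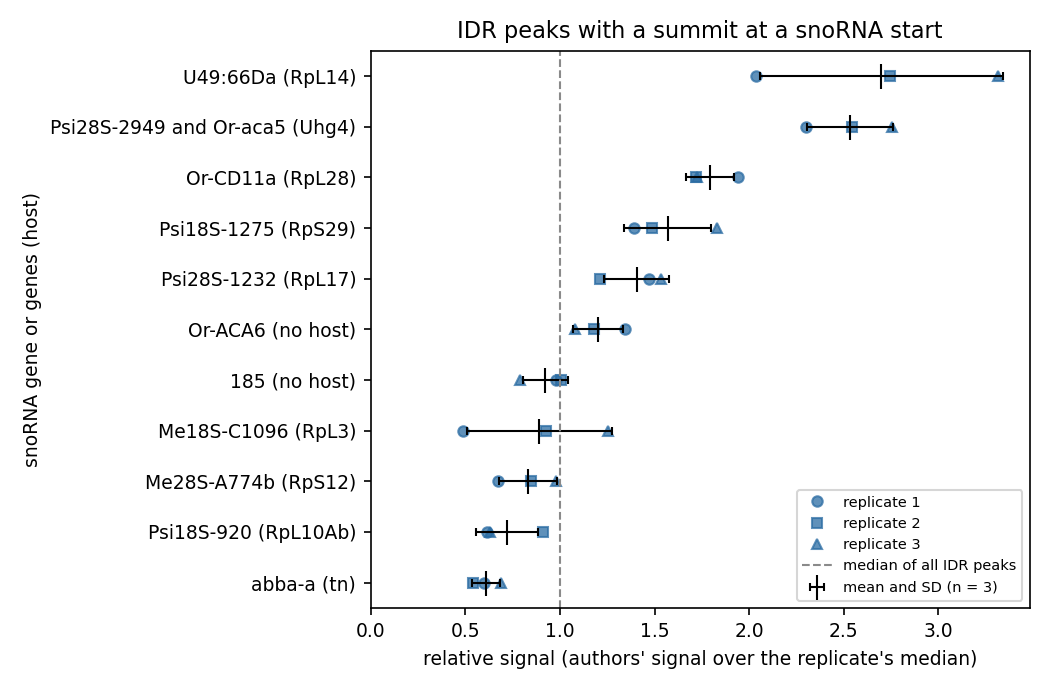
Relative signal (x axis, the authors' signal over the median of the replicate) of the 11 IDR peaks with a summit within 500 bp of a snoRNA start, 1 row per peak, with the 3 replicates as symbols and the mean ± SD in black. The peaks at snoRNA:U49:66Da, the Uhg4 pair, snoRNA:Or-CD11a, snoRNA:Psi18S-1275, snoRNA:Psi28S-1232 and snoRNA:Or-ACA6 lie above 1 in all replicates. snoRNA:abba-a has the lowest mean, 0.610.

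The promoters of these 7 ribosomal protein hosts are printed because their start sites carry the peaks, and the snoRNA sequences printed above begin downstream of them. Each line gives 90 bases before and 10 bases from the host start site on, on the strand of the host, in RefSeq sequence with dm6 coordinates. Capitals mark the letters TATCGATA (DRE, a motif of fly housekeeping promoters), CGATA (the core of the BEAF-32 motif, which TATCGATA contains) and CTTT beginning within 5 bases of the start, as in the pyrimidine tract at the start of many ribosomal protein genes. CGATA was searched on both strands and so also appears as TATCG.
RpL14, chr3L:8600916-8601015, plus strand: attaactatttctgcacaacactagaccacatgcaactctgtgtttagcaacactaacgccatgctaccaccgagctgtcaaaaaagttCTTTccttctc
RpL28, chr3L:3222951-3223050, minus strand: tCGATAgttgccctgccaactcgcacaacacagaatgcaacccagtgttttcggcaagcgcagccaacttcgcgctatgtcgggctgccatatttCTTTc
RpS29, chr3R:9777952-9778051, plus strand: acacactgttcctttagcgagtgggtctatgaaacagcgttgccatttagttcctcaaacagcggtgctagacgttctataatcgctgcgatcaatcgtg
RpL17, chrX:6744229-6744328, minus strand: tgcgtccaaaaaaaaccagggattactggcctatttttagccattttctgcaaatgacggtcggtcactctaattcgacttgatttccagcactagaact
RpL3, chr3R:11221804-11221903, plus strand: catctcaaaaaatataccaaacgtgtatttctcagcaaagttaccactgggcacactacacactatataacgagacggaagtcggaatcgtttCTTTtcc
RpS12, chr3L:13023262-13023361, plus strand: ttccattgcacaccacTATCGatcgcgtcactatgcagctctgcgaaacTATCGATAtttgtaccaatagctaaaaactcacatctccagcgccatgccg
RpL10Ab, chr3L:11822761-11822860, plus strand: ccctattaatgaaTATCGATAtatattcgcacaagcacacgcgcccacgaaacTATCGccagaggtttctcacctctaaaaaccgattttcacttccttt
RpS12 and RpL10Ab, whose peaks were below the median height, hold TATCGATA in these stretches, and RpL14, RpS29, RpL3 and RpL17 hold none of the 5 motifs searched.

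Motifs were counted on both strands in windows reaching 50 bp to each side of the summit. Of the 47 IDR summits at host start sites, 6 held TATCGATA (12.8%, 5.98 to 25.2%), against 4.33% of the 1985 IDR summits at any annotated start site, 2.25% of all IDR summits and 1.11% of all pooled relaxed summits. CGATA, which includes those matches, was in 19 (40.4%, 27.6 to 54.7%), against 23.1% at any start site, 17% of all IDR summits and 13.6% of pooled relaxed summits. In these windows the interval at hosts lay above the share at any start site for both motifs. For the other 3 motifs the interval at hosts reached the share at any start site or below it. GAGAG was in 6 of the 47 host windows (12.8%, 5.98 to 25.2%), against 10.1% at any start site. CACGTG was in 2 (4.26%, 1.18 to 14.2%), against 1.36%, and GGTCACACT in 1 (2.13%, 0.377 to 11.1%), against 1.26%. In windows reaching 100 bp to each side TATCGATA was in 8 of 47 host windows (17%, 8.89 to 30.1%), against 8.21% at any start site. CGATA was then in 22 (46.8%, 33.3 to 60.8%), against 38.2% at any start site, an interval that includes that share. CTTT within 5 bases before to 8 bases after a start site was found at 19 of 29 ribosomal protein hosts (65.5%), against 39 of 64 other ribosomal protein genes (60.9%) and 8.07% of protein-coding genes, and at 10 of 55 other protein-coding hosts and 3 of 7 Uhg genes. A match is only a match of letters, and CTTT was chosen after the promoters were seen.

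The share of bound snoRNA genes followed their distance from the host start. Of the 35 snoRNA genes that start within 500 bp of a host start site 8 were bound (22.9%, 12.1 to 39.0%), against 2 of 212 with a host farther away (0.943%, 0.259 to 3.37%) and 2 of 22 with no host. The difference of the first shares was 21.9 percentage points (95% Newcombe interval 10.9 to 38.1). In bins of distance, 4 of 17 genes within 250 bp and 4 of 18 from 250 to 500 bp were bound, against 1 of 51 from 500 to 1000 bp, 0 of 75 from 1000 to 2000 bp (which allows up to 4.87% by the interval), 1 of 63 from 2000 to 5000 bp and 0 of 23 beyond. A window near a host start takes in the peak of that start, so these shares do not separate the snoRNA from its host. Among the 35 near genes, 8 of the 19 whose host had an IDR summit at a start site were bound, and 0 of the 16 whose host had none. The windows at the snoRNA and at the host overlap for these near genes, so this split is partly set by how they were selected. Among the 212 farther snoRNA genes 1 was bound on each side of that split. Beyond 500 bp of any annotated start site 1.69% of the bases of the arms lay within 500 bp of an IDR summit, against 9.98% within 500 bp of one. The snoRNA starts count among these annotated start sites, so the 1.69% is not a matched reference for the farther snoRNA genes. Their interval lies below the 9.98%, a share that covers start sites of every kind.

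**Figure D3:**
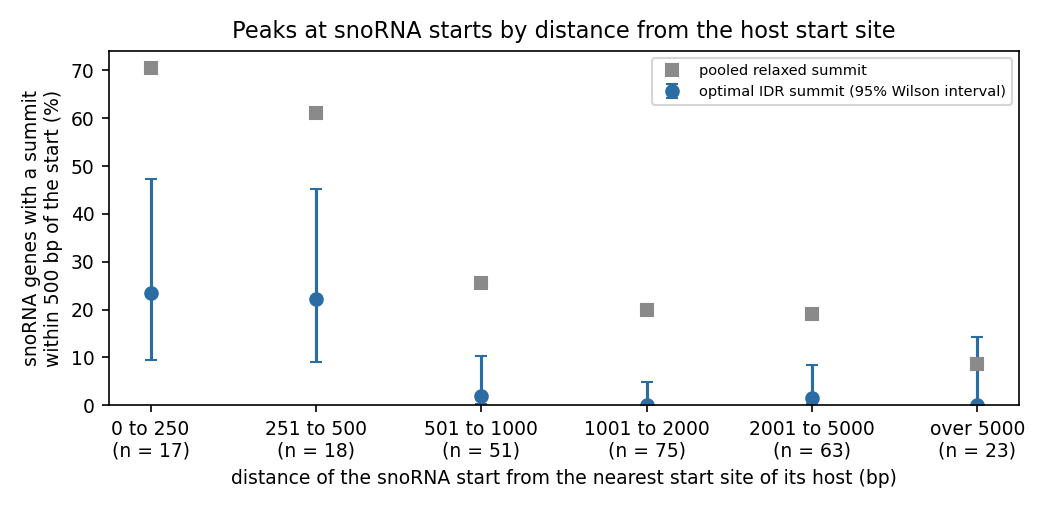
Share of snoRNA genes with a summit within 500 bp of their start (y axis, %) by distance from the nearest start site of their host (x axis, bp, with the number of genes). The IDR shares (circles, 95% Wilson intervals) are 23.5% and 22.2% in the first bins and at most 1.96% in the others, and the pooled relaxed shares (squares) run from 70.6% in the nearest bin to 8.70% in the farthest.

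Over all snoRNA genes the classes did not separate. Among C/D genes 4 of 106 were bound (3.77%, 1.48 to 9.30%), among H/ACA genes 6 of 114 (5.26%, 2.43 to 11%), among unclassed genes 2 of 33 and among scaRNAs 0 of 16, which allows up to 19.4% by the interval. The difference of C/D minus H/ACA was -1.49 percentage points (Newcombe interval -7.68 to 4.72), and its sign changed with the window and the peak set, so no direction is given. Pooled relaxed summits were at 30 of 106 C/D genes (28.3%) and 31 of 114 H/ACA genes (27.2%). Near a host start site, 3 of 20 C/D and 5 of 11 H/ACA genes were bound, with intervals that overlap (5.24 to 36.0% and 21.3 to 72%). These H/ACA genes include the Uhg4 pair, which shares a peak. Pooled relaxed summits were at 11 of 20 C/D and 9 of 11 H/ACA genes near a host start, again with overlapping intervals (34.2 to 74.2% and 52.3 to 94.9%). The H/ACA share near a host start was also the larger in each replicate's relaxed list, with overlapping intervals in each. These lists recount the same genes, so no direction is given here either.

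The pair in Uhg4 shared a peak whose replicate values overlapped those at RpL14. Uhg4 (FBgn0083124) is a non-coding host of 7 snoRNA genes, and snoRNA:Psi28S-2949 (FBgn0082981) and snoRNA:Or-aca5 (FBgn0086672), both H/ACA, start 99 and 412 bp downstream of its start. The peak covered chr2R:9095087-9095301, with the summit 82 bp upstream of Uhg4 and no other gene start but those of the pair within 500 bp. Its relative signals were 2.30, 2.54 and 2.76 in replicates 1, 2 and 3 (2.53 ± 0.227), all above the median peak.

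The other 3 bound snoRNA genes had no host start at the summit. snoRNA:Or-ACA6 (FBgn0286726) has no host, and its peak at chr2R:10081578-10082007 had relative signals of 1.35, 1.18 and 1.08 (1.2 ± 0.134), above the median in each replicate. No other annotated start lay within 500 bp of this summit, which sits 468 bp upstream of snoRNA:Or-ACA6 and 529 bp downstream of the start of snoRNA:Or-CD13, another gene on the same strand with no host. snoRNA:185 (FBgn0065076), also without a host, had the summit closest to a snoRNA start, 68 bp upstream, with relative signals of 0.981, 1.00 and 0.787 (0.924 ± 0.119) at chr2R:19727005-19727434. A glutamate tRNA gene starts within 500 bp of it. snoRNA:abba-a (FBgn0263473), in an intron of tn, a gene for a muscle ubiquitin ligase, had 0.598, 0.542 and 0.689 (0.610 ± 0.0738), the lowest mean of the bound snoRNA genes, at chr2R:18994044-18994473, with the nearest tn start 3222 bp from the summit.

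The 500 bp limit cut through a series of summits at similar distances. Just inside it were snoRNA:Or-aca5 at 494 bp, snoRNA:U49:66Da at 484 bp, snoRNA:Me18S-C1096 at 482 bp and snoRNA:Or-ACA6 at 468 bp. Just outside were snoRNA:Or-CD13 at 529 bp, snoRNA:Psi18S-1295 at 572 bp, scaRNA:MeU1:95C-A24 at 590 bp and snoRNA:Me28S-A2113 at 593 bp. Within 1000 bp, 30 of the 37 bound snoRNA genes (81.1%) had the summit within 1000 bp of a host start site, and within 200 bp 3 snoRNA genes were bound. The body of an IDR peak covered the snoRNA start in 2 genes.

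No reproducible peak lay at the starts of the U3 and U14 genes. U3, the box C/D RNA needed for cleavage of the ribosomal RNA precursor, had 3 genes with no IDR or pooled relaxed summit at the start. The nearest IDR summit was 15121 bp from snoRNA:U3:9B, 72234 bp from snoRNA:U3:54Aa and 70347 bp from snoRNA:U3:54Ab. The 2 genes of U14, another C/D RNA of ribosomal RNA processing, lie in Uhg2 and likewise had none, with IDR summits 3246 and 3505 bp away. Relaxed summits at these starts were found in 1 replicate for snoRNA:U3:9B and snoRNA:U14:30Eb, in 2 for snoRNA:U3:54Ab and in none for the other 2 genes. Of the 22 genes with no host, which include the U3 genes, 2 were bound (9.09%, 2.53 to 27.8%), against 4.46% of all snoRNA genes and 12.8% of all genes, both inside that interval. A pooled relaxed summit was at 12 of the 22 (54.5%, 34.7 to 73.1%), against 28.6% of all snoRNA genes and 39.2% of all genes, and 10 of these 12 were at signals below the IDR set.

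Among the 65 snoRNA genes with a pooled relaxed summit and no IDR summit the best pooled signal ran from 36.5 to 106, with a median of 54.1, against a median of 52.8 over the pooled list. The pooled signal is the authors' value without division by a median, and the IDR set holds the pooled peaks from 108.6 upwards. Only 4 of the 65 had a q value of at most 0.01. The highest were snoRNA:Or-CD4 in Uhg5 (106), snoRNA:CG43051-a (99.8), snoRNA:Me18S-C1366 and snoRNA:Me28S-C3227a, which share a peak at Uhg5 (99.7), snoRNA:291 in Prp39 (92.5) and snoRNA:Me28S-G3081a in Uhg1 (87.4). Relaxed summits lay at the start in 3 replicates for each of them but snoRNA:291, which had them in 2.

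In contrast to the snoRNA starts, the start sites of the hosts often carried a peak. An IDR summit lay within 500 bp of a start site in 43 of the 95 hosts (45.3%, 35.6 to 55.3%), against 14.3% of all genes and 17.1% of protein-coding genes. These 43 hosts contain 120 of the 269 snoRNA genes (44.6%), and 9 of the 120 started within 500 bp of an IDR summit. A pooled relaxed summit was at 87 of the 95 hosts (91.6%), against 7578 of all 18164 genes. Among genes with one, 43 of 87 hosts were bound (49.4%, 39.2 to 59.7%), against 34.2% of all genes. This gap is smaller than that of 45.3% against 14.3%. Protein-coding hosts had more annotated start sites than protein-coding genes at large (mean 1.99 and 1.41) and were longer (median 3952.5 and 2166 bp), and the part of this in the share was not tested. Counted at the gene's 5′ end alone, 37 of 95 hosts were bound (38.9%), against 12.8% of all genes counted that way.

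Ribosomal protein hosts were the most often bound. An IDR summit was at 19 of the 29 hosts with ribosomal protein symbols (65.5%, 47.4 to 80.1%), against 40 of the 64 ribosomal protein genes that host no snoRNA (62.5%, 50.2 to 73.3%). The difference was 3.02 percentage points (Newcombe interval -18.1 to 22.0), which spans 0, so no difference between ribosomal protein genes with and without a snoRNA was detectable at these counts, and the interval leaves room for one in either direction. Among those with a pooled relaxed summit the order turned, with 19 of 29 (65.5%) against 40 of 56 (71.4%, 58.5 to 81.6%) and overlapping intervals. The ribosomal protein symbols are all those that begin RpL or RpS, or sta, paralogs with -like symbols included. The other protein-coding hosts were bound in 23 of 55 cases (41.8%, 29.7 to 55.0%), against 16.7% of protein-coding genes that are neither hosts nor ribosomal protein genes. Among those with a pooled relaxed summit these shares were 45.1% (32.3 to 58.6%) and 35.9%, and the interval of the hosts includes the second. Of the 10 ncRNA hosts 1 was bound (10%, 1.79 to 40.4%), against 5.32% of other ncRNA genes. That host was Uhg4, 1 of 7 Uhg genes, of which 6 had a pooled relaxed summit. Host annotations also overlap, with 12 snoRNA genes in more than 1 host. The ncRNA hosts Uhg7 and lncRNA:CR42491 count as unbound, though their snoRNA genes also lie in the bound hosts RpL23A and RpL22.

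**Figure D4:**
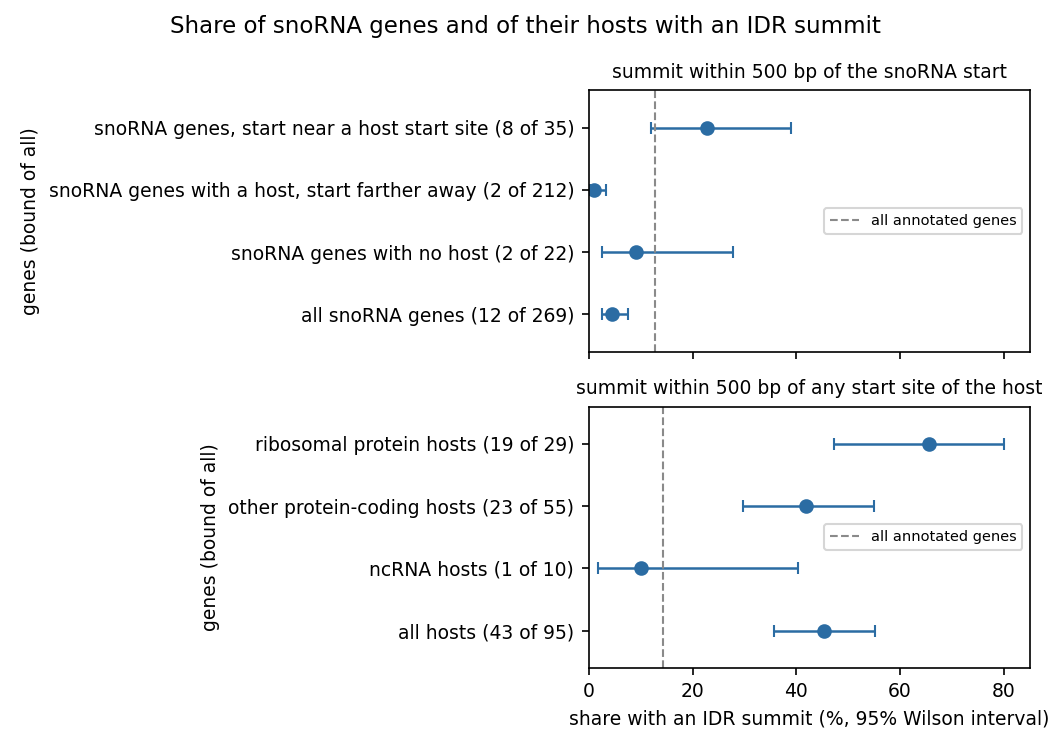
Share with an optimal IDR summit (x axis, %, 95% Wilson intervals) for snoRNA genes, at their own start (upper panel), and for host genes, at any start site (lower panel), with the share of all annotated genes as a dashed line. The shares are 22.9% for snoRNA genes near a host start and 0.943% for those farther away, and 65.5% for ribosomal protein hosts and 10% for ncRNA hosts.

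The highest host peak was at Stt3A (FBgn0031149), a catalytic subunit of the oligosaccharyltransferase that attaches sugars to proteins, which hosts 3 snoRNA or scaRNA genes. The peak covered chrX:21054190-21054494 and its summit lay 378 bp upstream of Stt3A, with the start of bves also within 500 bp. The relative signals were 4.52, 5.64 and 4.90 in replicates 1, 2 and 3 (5.02 ± 0.570), above those of every other host in each replicate. CG1142 had 3.29, 4.03 and 3.52 (3.61 ± 0.378), with the summit 183 bp upstream, and Msp300, which encodes a giant nesprin of the nuclear envelope, had 2.81, 3.18 and 3.45 (3.14 ± 0.322), 359 bp upstream of one of its starts. CG1142 and Msp300 host 1 scaRNA or snoRNA gene each, and the peak of Stt3A was not within 500 bp of any snoRNA start.

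Next were ribosomal protein genes. RpS20 had relative signals of 3.07, 2.42 and 3.17 (2.89 ± 0.406), with the start of CG17271 also near, and RpL23A, which hosts 4 snoRNA genes, had 2.60, 2.57 and 2.67 (2.61 ± 0.0522). RpL13A had 1.95, 2.01 and 2.21 (2.05 ± 0.138), and RpL30 had 1.69, 2.25 and 1.97 (1.97 ± 0.280). CG12316 had 1.86, 2.83 and 3.09 (2.59 ± 0.646), with its summit 155 bp downstream of the start, and lola, a gene for a family of zinc finger transcription factors, had 2.53, 2.22 and 1.51 (2.09 ± 0.523). The replicate values of RpL14, Uhg4, RpL23A and CG12316 overlapped, so their order is not settled by these data. With RpL28, whose values are given above, these are the 12 hosts with the best mean rank.

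**Figure D5:**
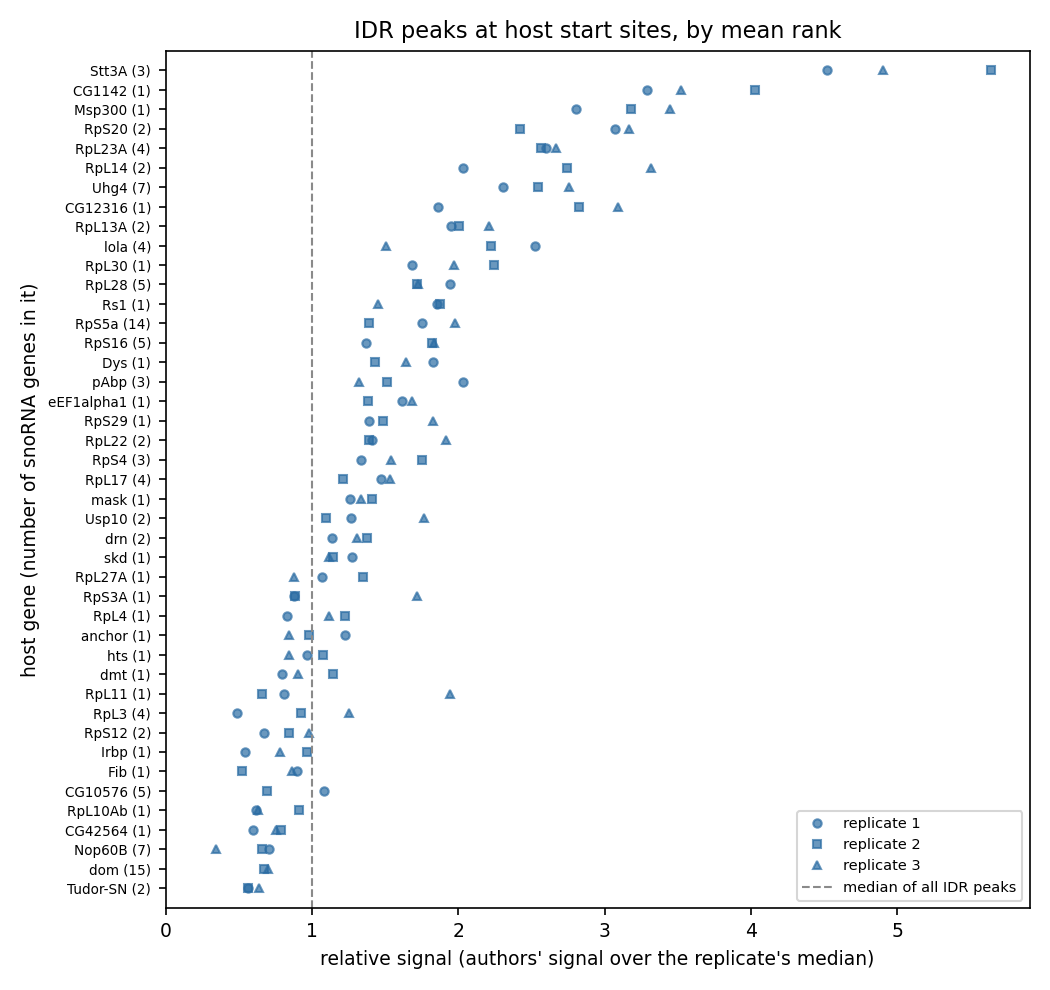
Relative signal (x axis) in each replicate (symbols) of the highest-ranked IDR peak at a start site of each of the 43 bound hosts (y axis, with the number of snoRNA genes in the host), ordered by mean rank, best at the top. Stt3A reaches 4.52 to 5.64, and dom and CG10576 have 2 symbols because 1 replicate had no peak within 100 bp of the summit.

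None of the 7 hosts with 8 or more snoRNA genes was among the 12 hosts with the best mean rank. Arpc2, a subunit of the actin-nucleating Arp2/3 complex, holds 17 and had no IDR summit, with a pooled relaxed signal of 49.96. Uhg1, with 16, and Uhg5, with 11, also had none, with pooled signals of 87.4 and 99.7. dom, a chromatin remodelling ATPase gene with 15, was bound at 0.671 and 0.699 in replicates 2 and 3, and replicate 1 had no matching peak. RpS5a, with 14, was bound at 1.75, 1.39 and 1.98 (1.71 ± 0.294). Of the others in this group, Sf3b3, a splicing factor gene with 9, and kra, a translation regulator gene with 8, were not bound, with pooled signals of 48.5 and 102. The 4 hosts tied at 7 snoRNA genes were Uhg4 and Nop60B, which were bound, and Hrb98DE and RpS7, which were not, RpS7 with a pooled signal of 107. By number, 21 of 56 hosts with 1 snoRNA gene were bound (37.5%), 18 of 28 with 2 to 5 (64.3%) and 4 of 11 with more than 5 (36.4%), with no steady trend.

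The hosts without an IDR summit were mostly not empty. Of the 52, 44 had a pooled relaxed summit at a start site, with signals from 41.0 to 107 and a median of 81.2. All 10 unbound ribosomal protein hosts had one, from 43.7 to 107 with a median of 87.9. The highest of these signals lay just under 108.6, the lowest signal in the IDR set, so the division into bound and unbound hosts falls within a range of heights that was filled on both sides.

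Peaks at hosts were higher than promoter peaks at large and sat at a similar distance from the start. The median relative signal of the 47 IDR peaks at host start sites was 1.27, 1.35 and 1.51 in replicates 1, 2 and 3 (1.38 ± 0.121, SD, n = 3), against 1.05, 1.03 and 1.06 (1.05 ± 0.0162) for the 1985 peaks at any start site. In each replicate the host median was above the median at any start site. The 20 peaks at ribosomal protein hosts had 1.38, 1.39 and 1.78 (1.52 ± 0.225), and the 11 peaks at snoRNA starts had 1.35, 1.18 and 1.25 (1.26 ± 0.0837). The summits at host starts had a median position 70 bp upstream of the start (quartiles -151.5 and -19.5 bp), against 88 bp upstream at any start site, and 39 of 47 (83.0%) were upstream, against 78.9%. At ribosomal protein hosts the median was -40.5 bp. Of the 43 bound hosts, 24 shared the summit with a start site of another gene, so a peak cannot be assigned to the host alone in those cases.

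The proteins that build snoRNA particles were bound in 6 of 19 genes matched (31.6%, 15.4 to 54.0%), an interval that includes the 17.1% of protein-coding genes. Of the 4 core C/D proteins, Fib, the fibrillarin methyltransferase, was bound, at 0.900, 0.524 and 0.861 (0.762 ± 0.207). nop5 had only a pooled relaxed peak, and Nop56 and hoip had none. Of the 4 core H/ACA proteins, Nop60B, the pseudouridine synthase, was bound at 0.705, 0.659 and 0.342 (0.568 ± 0.198) and NHP2 at 0.688, 1.05 and 0.704 (0.815 ± 0.207), while Gar1 and Nop10 had only pooled relaxed peaks. Of the 11 assembly and U3 processome genes, the paired ATPase genes rept and pont were bound, at 0.892, 0.579 and 0.736 (rept) and 0.917, 0.456 and 0.480 (pont), and l(3)72Dn at 0.998 and 0.642 in replicates 1 and 3 with no matching peak in replicate 2. The mean relative signal of each of the 6 was below 1. Fib and Nop60B are themselves hosts, of 1 and 7 snoRNA genes, as is nop5, of 1.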

How the data were processed

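The authors deposited dm6 peak lists, per the labels: relaxed peaks of every replicate and of the replicates pooled, and an optimal IDR set. The height of a peak is the signal value the authors deposited, and its significance is a deposited −log10 q value. The summit is the deposited offset of each peak, read as a position (other unit). Aligner, peak caller and depth were not given in the sources used here. Counting error in peak heights could therefore not be estimated. The labels name a control, but no control list was used here, and background signal cannot be told apart from the tagged protein's. Lists on dm3 were not used.

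Genes and transcripts came from Ensembl release 115 (BDGP6.54). A summit within 500 bp of a start was at it. A host spans the snoRNA gene on its strand, and all its annotated start sites counted. Replicate peaks were matched to IDR summits within 100 bp and divided by the replicate's median over IDR peaks (55.2, 70.0 and 54.0 in replicates 1, 2 and 3). Shares carry 95% Wilson intervals, and no test was run, since the design has 1 group. Counting was checked on simulated summits, with Python 3.11.15 and pandas 2.3.3.

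The genes named were every bound snoRNA gene, 12 bound hosts by best mean rank, the 8 hosts with most snoRNA genes (ties kept), the 6 highest snoRNA genes with relaxed peaks only, U3, U14 and genes with no host, and the protein genes of snoRNA particles. Members and lists were chosen with earlier results of these data known.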

Additional observations from a re-analysis of the deposited data

How the results depend on the processing

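The snoRNA share stayed below that of all genes, and the host share above it, with windows of 200, 500 and 1000 bp, with both other peak sets and without each replicate. Within 1000 bp, however, the interval of the snoRNA share (10.2 to 18.4%) included the 15.9% of all genes. Without a replicate (the strongest peaks shared by the other replicates) the sets held 2766 to 2854 peaks, against 3953 in the IDR set. The all-gene share in them was 9.51 to 9.62% at the gene start and 10.75 to 10.83% at any start site. In these smaller sets the snoRNA share was 2.97 to 3.35% and the host share 36.8 to 38.9%. The near minus far difference was 16.7 to 17.1 points, and the C/D minus H/ACA difference -2.50 to 0.265 points. That difference also turned positive with 1000 bp (8.21), with pooled peaks of q at most 0.01 (1.34) and with strong peaks found in 2 replicates (0.265). Within 200 bp the snoRNA shares were 1.12% (IDR), 8.55% (pooled) and 8.92, 13.8 and 11.2% (replicates 1, 2 and 3), and the median signal of the 3 peaks left was 0.924. Within 1000 bp they were 13.8, 52.0, 52.4, 58.0 and 59.5% in the same order. The IDR share of all genes, at the gene start, was 8.67% within 200 bp and 15.9% within 1000 bp. Relaxed peaks of q at most 0.05 lay at 9.29% (pooled) and 4.09, 8.55 and 7.81% (replicates). The peak body covered the start in 0.743% (IDR) and 8.92% (pooled) of snoRNA genes and 30.5% of hosts. No all-gene share was counted for the relaxed lists at these settings or for peak bodies. Those values are therefore not read as high or low for snoRNA genes or hosts. Counting each host or cluster once gave 10.2% (IDR) and 50% (pooled). The host share was 55.8% with pooled peaks of q at most 0.01, against 16.85% of all genes, and 10% for ncRNA hosts alone. The causes were not tested. In 60 of 86 alternatives the value stayed within its interval or replicate SD, or on its side of the all-peak median for percentile ranks. Adding the 5 snoRNA-named genes of biotype ncRNA, chosen after seeing the data, gave 13 of 274. No paired analysis was possible because there is 1 group and no test. Unknown read depth limits what absent peaks show.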

Other observations

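Other short non-coding genes were counted the same way. Beside the 12 of 269 snoRNA genes, an IDR summit lay within 500 bp of the start in 9 of 290 tRNA genes (3.10%, 95% Wilson interval 1.64 to 5.79%) and in 9 of 32 snRNA genes (28.1%, 15.6 to 45.4%). snoRNA starts were nonetheless closer to IDR summits than gene starts in general, with a median distance of 4664 bp to the nearest one, against 9733.5 bp over all genes.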
